A study of Mus musculus with 9 samples.

Results

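The genes described here are those of the mouse proteasome and its helpers whose symbol matches Psm followed by a letter from a to g and a digit, leaving out names marked -ps, with at least 10 raw counts in each of the 9 libraries. Of the 53465 genes in the count table, 50 matched the name pattern and 47 met the count minimum. All 47 were among the 18501 genes that passed the filter on low counts and were tested. The name is wider than the label of subunit: 33 of the 47 encode parts of the 20S core or the 19S cap (2 of them the inducible subunits Psmb8 and Psmb10), 7 encode assembly chaperones, 5 activators and 1 an inhibitor. The last, Psmc3ip, matches by name alone and encodes a cofactor of meiotic recombination, not a proteasome subunit. Whole-brain poly(A) RNA was sequenced from 3 groups of 3 male C57BL/6 mice, 1 library a mouse. CON mice were not made diabetic and received saline. DNP mice, the model of diabetic neuropathic pain, ate food with 60% fat during 4 weeks before 7 daily injections of streptozotocin (50 mg/kg), which destroys insulin-producing cells, and had saline as the vehicle. BAC mice went through the same diabetes protocol and then received baclofen, a GABA-B receptor agonist, at 8 mg/kg on 7 days. All mice were 7 weeks old at the start. Diet and streptozotocin were always given together, so their parts cannot be told apart, and no group received baclofen without diabetes.

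The proteasome degrades proteins that carry ubiquitin chains. Its 20S core is a barrel of alpha rings, which gate the entry, and beta rings, whose catalytic subunits cut peptide bonds. The 19S cap binds the ubiquitin chain, removes it and threads the substrate inward with a ring of ATPases, and in neurons this degradation contributes to synaptic protein turnover. The membrane-bound factor NRF1 (Nfe2l1) raises transcription of the subunit genes together when proteasome activity falls, and interferons induce the immunoproteasome subunits.

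Promoters of 4 genes are printed because the catalytic genes Psmb5 and Psmb6 held the core of the antioxidant response element, the element that NRF1 recognises, because Psmd4 was among the genes with the clearest difference between groups, and because Psmb8 stands for the interferon-inducible class. Each is the window from 250 bases before to 50 bases after the RefSeq transcription start (GRCm38.p6), written 5′ to 3′ on the gene's strand, with motif letters in capitals. In the Psmb5 window (chr14:54617946-54618245, minus strand) the letters TGACNNNGC began 47 bases before the start. In the Psmb6 window (chr11:70525107-70525406, plus strand) they began 9 bases before it. In the Psmd4 window (chr3:95042565-95042864, minus strand) the ETS family letters CCGGAAG began 125 bases before the start, and the CCAAT box occurred 3 times, 95 bases before it and 1 and 20 bases after it, with an interferon regulatory factor site 80 bases before it on the other strand. In the Psmb8 window (chr17:34197945-34198244, plus strand) the TATA letters TATAAA began 237 bases before the start and the STAT letters TTCNNNGAA 97 bases before it.
Psmb5: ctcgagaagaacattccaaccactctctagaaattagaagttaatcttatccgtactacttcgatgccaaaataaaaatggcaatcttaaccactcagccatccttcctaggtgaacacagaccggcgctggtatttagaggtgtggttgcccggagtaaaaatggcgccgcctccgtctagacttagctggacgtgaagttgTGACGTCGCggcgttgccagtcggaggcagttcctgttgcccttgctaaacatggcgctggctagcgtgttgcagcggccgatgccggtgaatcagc
Psmb6: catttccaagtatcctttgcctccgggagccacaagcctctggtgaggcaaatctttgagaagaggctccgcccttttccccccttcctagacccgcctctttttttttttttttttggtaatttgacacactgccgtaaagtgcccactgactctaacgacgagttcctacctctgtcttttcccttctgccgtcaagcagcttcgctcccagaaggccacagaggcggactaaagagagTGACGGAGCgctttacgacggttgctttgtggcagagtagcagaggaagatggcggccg
Psmd4: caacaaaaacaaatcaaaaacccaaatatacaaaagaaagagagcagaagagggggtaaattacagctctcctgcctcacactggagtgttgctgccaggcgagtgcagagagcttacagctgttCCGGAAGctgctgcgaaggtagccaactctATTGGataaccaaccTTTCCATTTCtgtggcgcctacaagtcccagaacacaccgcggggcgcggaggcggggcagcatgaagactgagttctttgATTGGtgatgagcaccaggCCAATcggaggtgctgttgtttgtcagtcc
Psmb8: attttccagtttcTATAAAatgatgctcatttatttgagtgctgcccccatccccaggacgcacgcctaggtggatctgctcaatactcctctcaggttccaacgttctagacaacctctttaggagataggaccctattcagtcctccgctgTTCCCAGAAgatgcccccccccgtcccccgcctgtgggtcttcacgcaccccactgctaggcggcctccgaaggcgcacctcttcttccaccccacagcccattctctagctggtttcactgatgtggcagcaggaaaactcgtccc

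Windows were found for 40 of the 47 genes, 43 windows in all, and both strands were searched for 8 motifs. TGACNNNGC was present in 6 of the 43 windows (14.0%) and in 12.4% of the 32851 windows of all genes. CCGGAAG was present in 16 (37.2%) against 8.86% of all windows. CCAAT was present in 13 (30.2%, 37.4% of all windows), TATAAA in 4 (9.30%, 13.6% of all) and TTCNNNGAA in 3 (6.98%, 8.30% of all). The interferon regulatory factor site was present in 5 (11.6%, 3.44% of all), the palindrome of nuclear respiratory factor 1, a different protein from the NRF1 above, in 7 (16.3%, 6.23% of all), and TGACTCAGC, a stricter form of TGACNNNGC that overlaps it, in 0 (0.454% of all). These matches describe letters in a window and were not tested.

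The libraries held 13107382 to 16008129 counts on genes. Whole-brain tissue was unevenly represented. The 3 libraries DNP 1, BAC 1 and BAC 3 were rich in brainstem and spinal cord markers. The mean log2 deviation of these markers was 3.98 to 4.61 there and -2.54 to -1.28 in the other 6. Counts of the cerebellar granule cell gene Gabra6 ranged from 0 to 4828. The highest was in CON 2, beside 42 in CON 1 and 735 in CON 3. The mean log2 deviation of cerebellum markers was -1.40, 3.87 and 1.42 in CON 1, CON 2 and CON 3. That of forebrain markers was 1.87, -0.79 and 1.83, so CON 2 differed from the other controls in both. In whole tissue, fewer cells of a type and less RNA per cell cannot be told apart. The replicates are separate mice, and libraries of the same group differed by far more than counting error (chi-square per degree of freedom 15.8 to 123).

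Levels between genes were compared as FPKM, the authors' counts scaled by gene length and library total, averaged over the 9 libraries. The highest were Psmc5, an ATPase of the 19S base, at 107, Psmb1, a structural beta subunit, at 96.1, and Psmc1, another base ATPase, at 55.7. The catalytic subunits lay within the first 11 ranks, with 43.1 for Psmb5, 27.1 for Psmb7 and 25.6 for Psmb6. The lowest were the immunoproteasome subunit Psmb8 at 0.974 and Psmc3ip at 0.931, so the members spanned about 2 orders of magnitude. This order depends on the gene lengths that the authors used, which were between 0.225 and 2.96 times the exon length of the GENCODE annotation. Divided by annotated exon length instead, Psmb1 moved from rank 2 to rank 20 of 47, whereas Psmc5, Psmc1 and Psmb4 kept ranks 1, 3 and 4. The assembly chaperones lay below most subunits, from 2.23 for Psmg3 to 13.5 for Psmg2.

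**Figure D1:**
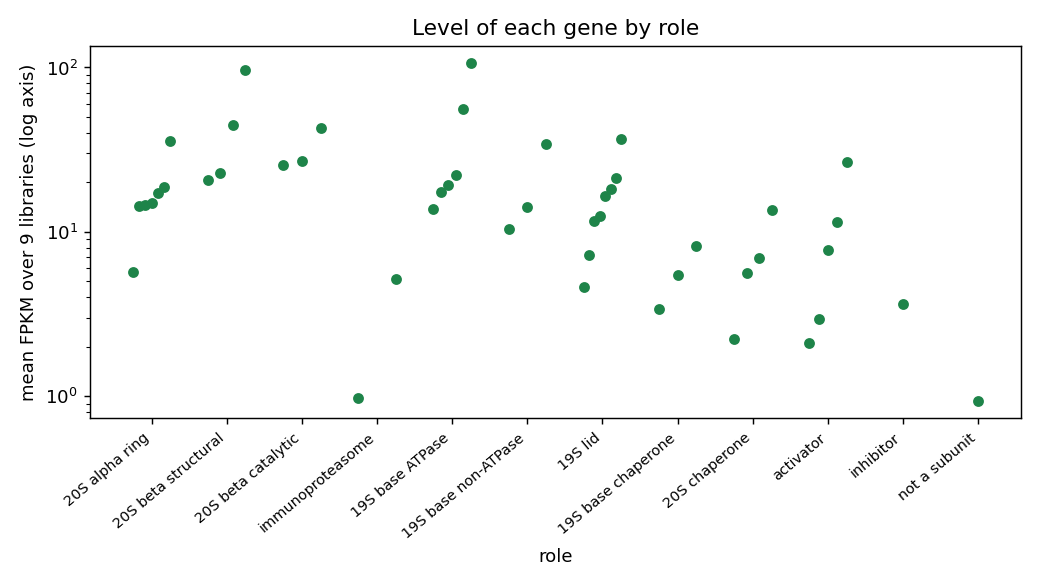
Mean FPKM over the 9 libraries of each of the 47 genes (1 point a gene, log axis), arranged by role. Psmc5 (107) and Psmb1 (96.1) lie highest, and Psmb8 (0.974) and Psmc3ip (0.931) lowest.

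To see whether the diabetic protocol was accompanied by a difference in proteasome transcripts, DNP was compared with CON. Of the 47 genes, 44 had a higher fitted level in DNP, where 51.4% of all tested genes did. The median log2 fold change of the members was 0.23 (a fold of 1.17), with a range from -0.13 to 0.59, and the median of all tested genes was 0.01. The 3 DNP libraries lay above the 3 CON libraries for 22 members (46.8%, background 9.59%) and below them for none (background 8.63%). The backgrounds, here and below, are not matched for level or for spread between mice. That spread was smaller for the members than for all tested genes. At an unadjusted p under 0.05, 8 members were higher (background 5.71%) and 0 were lower (background 5.46%). The 8 higher members were Psma2, Psma5, Psmb1, Psmb2, Psmb3, Psmb4, Psmd4 and Psmg4. No member passed an adjusted p of 0.05 in edgeR, in which 0% of all genes did, and none did in DESeq2, in which 1.85% of genes passed. The smallest adjusted p of a member was 0.376 in edgeR and 0.213 in DESeq2. The count of 8 was 4 without CON 2, 1 without CON 3 or without DNP 1, 3 without DNP 3 and 13 without DNP 2. The shares over all tested genes in those fits are not given.

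Summed over the members, the share of all counts was 0.258, 0.263 and 0.258% in CON, 0.347, 0.288 and 0.310% in DNP and 0.305, 0.275 and 0.342% in BAC. Every diabetic library therefore lay above every CON library in this share, and the spread was wider among the diabetic mice (SD 0.00284 around a mean of 0.260% in CON, 0.0300 around 0.315% in DNP and 0.0338 around 0.308% in BAC, n = 3 each). Per library, the median log2 deviation of the members from their mean over the 9 libraries was -0.12, -0.19 and -0.16 in CON, 0.19, 0.03 and 0.10 in DNP and -0.001, -0.03 and 0.17 in BAC. DNP 1 held the highest level of 19 members, DNP 3 of 10 and BAC 3 of 9, and CON 2 held the lowest level of 21 members and CON 3 of 12. CON 2 is the control library with more cerebellum and fewer forebrain marker transcripts, and whether this lowered its member levels was not tested. Other measures also differed between these groups. The summed level of 9 blood and leukocyte markers was 191 to 221 CPM in CON, 488 to 698 in DNP and 478 to 740 in BAC, with Cd3e and S100a9 at 0 in at least 1 library. That of 8 microglia markers was 165 to 306 CPM in CON, 313 to 367 in DNP and 257 to 410 in BAC, none at 0. That of 6 oligodendrocyte markers was 2108 to 2950 CPM in CON, 3532 to 8888 in DNP and 2845 to 9071 in BAC, none at 0, with the lowest BAC library inside the CON range. Mitochondrial genes took 4.34 to 5.36% of counts in CON, 6.68 to 7.01% in DNP and 5.94 to 7.23% in BAC. Their part in the members' difference was not tested.

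**Figure D2:**
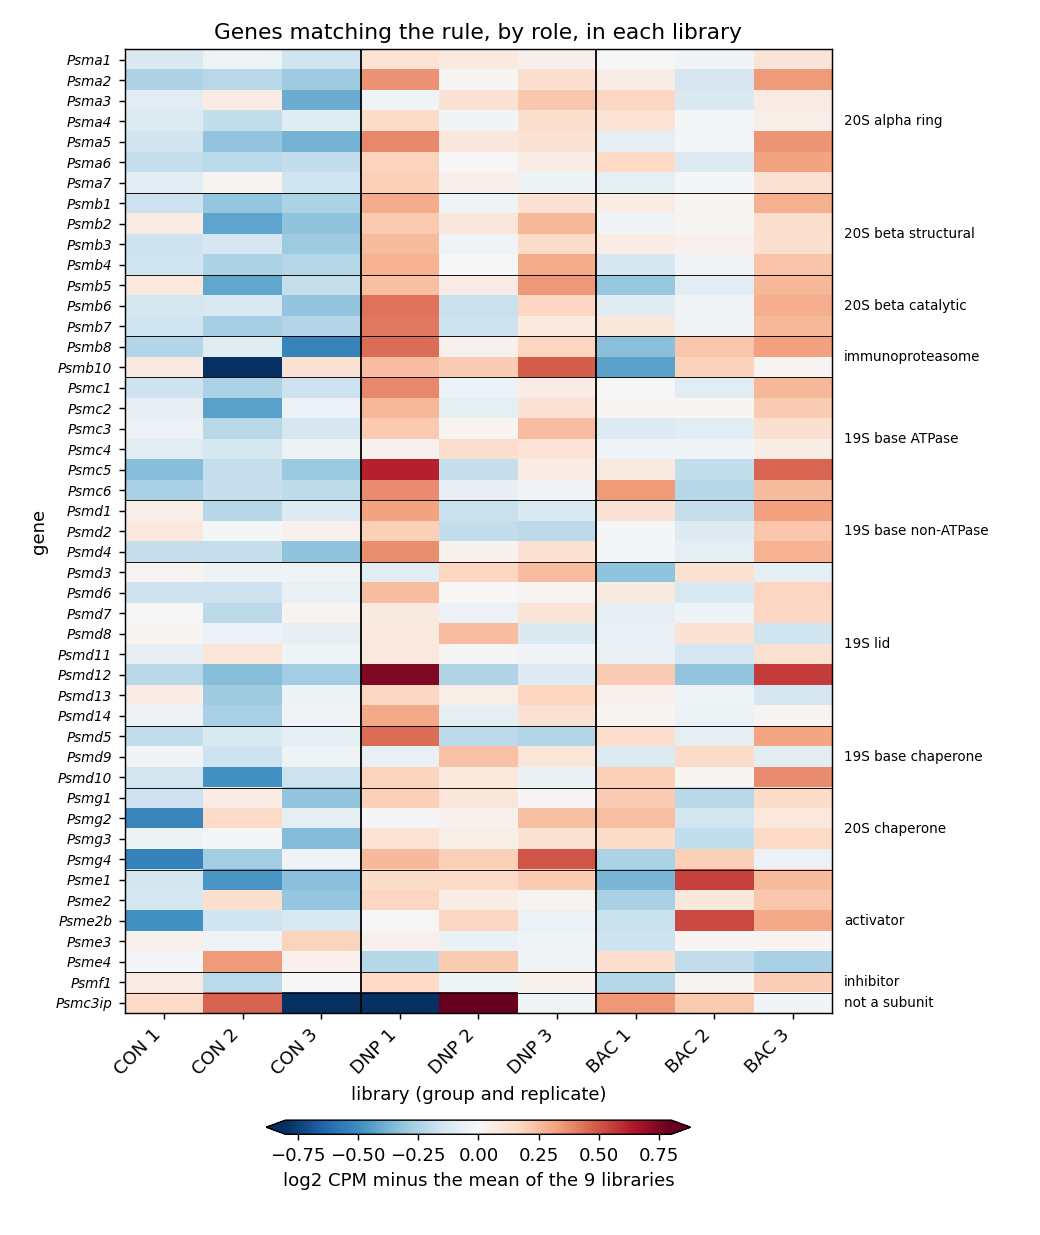
Colour shows the log2 CPM of each of the 47 genes (rows, ordered by role) in each library (columns) minus its mean over the 9 libraries, with values beyond 0.8 in size drawn at the end of the scale. The CON columns are mostly blue, and DNP 1 and BAC 3, where 40 members each lay above their mean, are mostly red.

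The 7 genes of the 20S alpha ring were all higher in DNP than in CON, with a median log2 difference of 0.23 and 5 of the 7 without overlap. Psma5 (ENSMUSG00000068749, chr3:108256926-108279974, plus strand), a ring subunit, had the smallest p of all members. In CPM, counts scaled to library size with TMM (edgeR's trimmed mean of M-values), the unit of all levels below, it stood at 20.4, 18.3 and 17.5 CPM in CON, 29.7, 24.3 and 24.7 in DNP and 21.6, 22.5 and 29.0 in BAC. All 6 diabetic libraries lay above the 3 CON libraries, and the group means were 18.7 ± 1.52 in CON and 26.2 ± 3.01 in DNP (SD, n = 3). The log2 fold change from CON to DNP was 0.48 ± 0.17 (SE, edgeR adjusted p = 0.376).

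The structural beta subunits, which build the beta ring without cutting peptides, did not overlap between DNP and CON in any member. All 4 (Psmb1, Psmb2, Psmb3 and Psmb4) were higher without overlap and at an unadjusted p under 0.05, with log2 differences between 0.32 and 0.41 and a median of 0.39. Psmb4 (ENSMUSG00000005779, chr3:94884093-94886961, minus strand) measured 105, 98.2 and 99.6 CPM in CON, 142, 116 and 144 in DNP and 106, 115 and 137 in BAC. Its lowest diabetic library, BAC 1, lay just above its highest CON library. The log2 fold change of Psmb4 in DNP was 0.41 ± 0.15 (SE, edgeR adjusted p = 0.382). Psmb1 (ENSMUSG00000014769, chr17:15475021-15499751, minus strand) measured 87.4, 79.3 and 82.5 CPM in CON, 121, 96.3 and 107 in DNP and 103, 99.4 and 120.1 in BAC. Here too no diabetic library reached down to the CON range, and the log2 fold change in DNP was 0.38 ± 0.14 (SE, edgeR adjusted p = 0.386).

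The catalytic subunits of the constitutive core were higher on average but overlapped between DNP and CON. Psmb5, the chymotrypsin-like subunit whose promoter is printed above, measured 68.7, 48.4 and 56.5 CPM in CON, 76.3, 67.7 and 82.2 in DNP and 52.3, 60.6 and 77.7 in BAC. CON 1 lay above DNP 2, and the log2 fold change was 0.38 ± 0.19 (SE, edgeR adjusted p = 0.489). Psmb6, the caspase-like subunit, measured 71.2, 72.1 and 63.2 CPM in CON, 106, 69.4 and 88.2 in DNP and 73.4, 76.9 and 96.0 in BAC. The level in DNP 2 was within the CON range while DNP 1 was the highest of all, and the log2 fold change was 0.35 ± 0.18 (SE, edgeR adjusted p = 0.502), which became 0.19 without DNP 1. Psmb7, the trypsin-like subunit, measured 85.2, 79.3 and 80.8 CPM in CON, 128, 84.7 and 101 in DNP and 102, 93.3 and 115 in BAC. DNP 2 lay below CON 1, and the log2 fold change was 0.35 ± 0.17 (SE, edgeR adjusted p = 0.471), which became 0.18 without DNP 1. Exons of Psmb7 share 405 bases with Nek6 on the opposite strand, whose reads these libraries without strand information cannot separate.

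Immunoproteasome subunits replace the catalytic ones after interferon exposure and change the peptides that are cut. Psmb8, the counterpart of Psmb5, measured 3.12, 3.42 and 2.53 CPM in CON, 5.00, 3.75 and 4.14 in DNP and 2.91, 4.28 and 4.60 in BAC. All DNP libraries exceeded all CON libraries, by a log2 fold change of 0.51 ± 0.26 (SE, edgeR adjusted p = 0.498), from raw counts as low as 36 in a library. Psmb10, the counterpart of Psmb7, measured 21.3, 10.8 and 22.0 CPM in CON, 24.0, 23.3 and 28.4 in DNP and 15.0, 23.1 and 20.5 in BAC. CON 2 was the lowest library, followed by BAC 1, and the log2 fold change of 0.48 ± 0.28 (SE, edgeR adjusted p = 0.549) became 0.22 without CON 2. Psmb9, the counterpart of Psmb6, fell just short of the count minimum with 16, 25 and 9 raw counts in CON, 19, 36 and 40 in DNP and 26, 21 and 33 in BAC. As a share of the FPKM of the 6 constitutive and inducible catalytic genes together, the inducible genes made up 6.35, 4.74 and 7.16% in CON, 5.84, 7.28 and 7.13% in DNP and 5.22, 7.19 and 5.46% in BAC. The 3 groups overlapped in this share.

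In the 19S cap, the 6 ATPases of the base were all higher in DNP, with a median log2 difference of 0.31 and 4 without overlap (Psmc1, Psmc3, Psmc4 and Psmc6). The non-ATPase subunits of the base split. Psmd4 (ENSMUSG00000005625, chr3:95032694-95042614, minus strand), a receptor for ubiquitin chains, measured 61.4, 61.4 and 56.0 CPM in CON, 90.5, 71.2 and 75.8 in DNP and 69.2, 66.4 and 84.8 in BAC. No diabetic library overlapped with CON, and the log2 fold change in DNP was 0.41 ± 0.15 (SE, edgeR adjusted p = 0.384). Psmd2, with Psmd1 a scaffold of the base, measured 204, 189.8 and 196 CPM in CON, 219, 168 and 166 in DNP and 191, 179 and 224 in BAC. DNP 2 and DNP 3 lay below all CON libraries and DNP 1 above them, and the log2 fold change was -0.09 ± 0.16 (SE, edgeR adjusted p = 0.869). The 8 lid genes, which hold or surround the deubiquitinase Psmd14, were all above 0 with a smaller median of 0.17, and Psmd6 alone did not overlap. Over the 33 subunit genes of core and cap, 32 were higher and the median log2 fold change was 0.29.

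Assembly chaperones help the rings form and leave the finished particle. The 3 chaperones of the base (Psmd5, Psmd9 and Psmd10) had a median log2 difference of 0.17, and the 4 of the 20S core (Psmg1 to Psmg4) a median of 0.22, all 7 above 0. Psmg4 measured 3.45, 4.13 and 4.92 CPM in CON, 6.01, 5.73 and 7.09 in DNP and 4.21, 5.73 and 4.85 in BAC. DNP lay above CON and also above BAC, with DNP 2 and BAC 2 nearly level.

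The activators open the gate of the core without ATP. In DNP 3 of the 5 were higher, with a median log2 difference of 0.18. Psme1, a PA28 subunit linked to antigen processing, measured 17.0, 13.7 and 15.0 CPM in CON, 20.9, 21.0 and 21.7 in DNP and 14.7, 27.6 and 22.5 in BAC. The DNP libraries lay close together above CON, with a log2 fold change of 0.48 ± 0.23 (SE, edgeR adjusted p = 0.465), while the BAC libraries ran from below the CON mean to the highest of all. Psme2, its partner in the ring, measured 6.70, 8.13 and 5.97 CPM in CON, 8.33, 7.71 and 7.49 in DNP and 6.17, 7.87 and 8.63 in BAC. CON 2 lay inside the DNP range, and the log2 fold change was 0.18 ± 0.21 (SE, edgeR adjusted p = 0.795), which became 0.08 without CON 3 and 0.30 without CON 2. Psme2b (chr11:48945354-48946190, minus strand) is a near-copy of Psme2, so the reads of either may have been counted on the other. Psme3, the nuclear PA28 gamma subunit, measured 101, 96.7 and 111 CPM in CON, 101, 95.1 and 96.3 in DNP and 87.9, 99.5 and 99.7 in BAC. Its log2 fold change was -0.08 ± 0.12 (SE, edgeR adjusted p = 0.852), and the ranges of the groups overlapped. Psme4, the large PA200 activator, measured 70.3, 89.8 and 72.5 CPM in CON, 60.5, 82.0 and 69.5 in DNP and 77.7, 61.8 and 59.1 in BAC. CON 2 was the highest library, and the log2 fold change was -0.13 ± 0.18 (SE, edgeR adjusted p = 0.826). Psmf1, the PI31 inhibitor, measured 39.6, 32.5 and 37.9 CPM in CON, 42.2, 36.9 and 38.6 in DNP and 32.3, 38.3 and 43.4 in BAC. It overlapped between all groups, with a log2 fold change of 0.10 ± 0.15 (SE, edgeR adjusted p = 0.861). Psme4, Psme3 and Psmd2 were the 3 of 47 genes with a lower fitted level in DNP, and none of the 3 passed a test. Psmc3ip, which is no subunit, ranged from 1.3 CPM in DNP 1 to 4.78 in DNP 2, the widest spread of the members, and 385 bases of its exons are shared with the higher-count gene Mlx on the opposite strand.

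**Figure D3:**
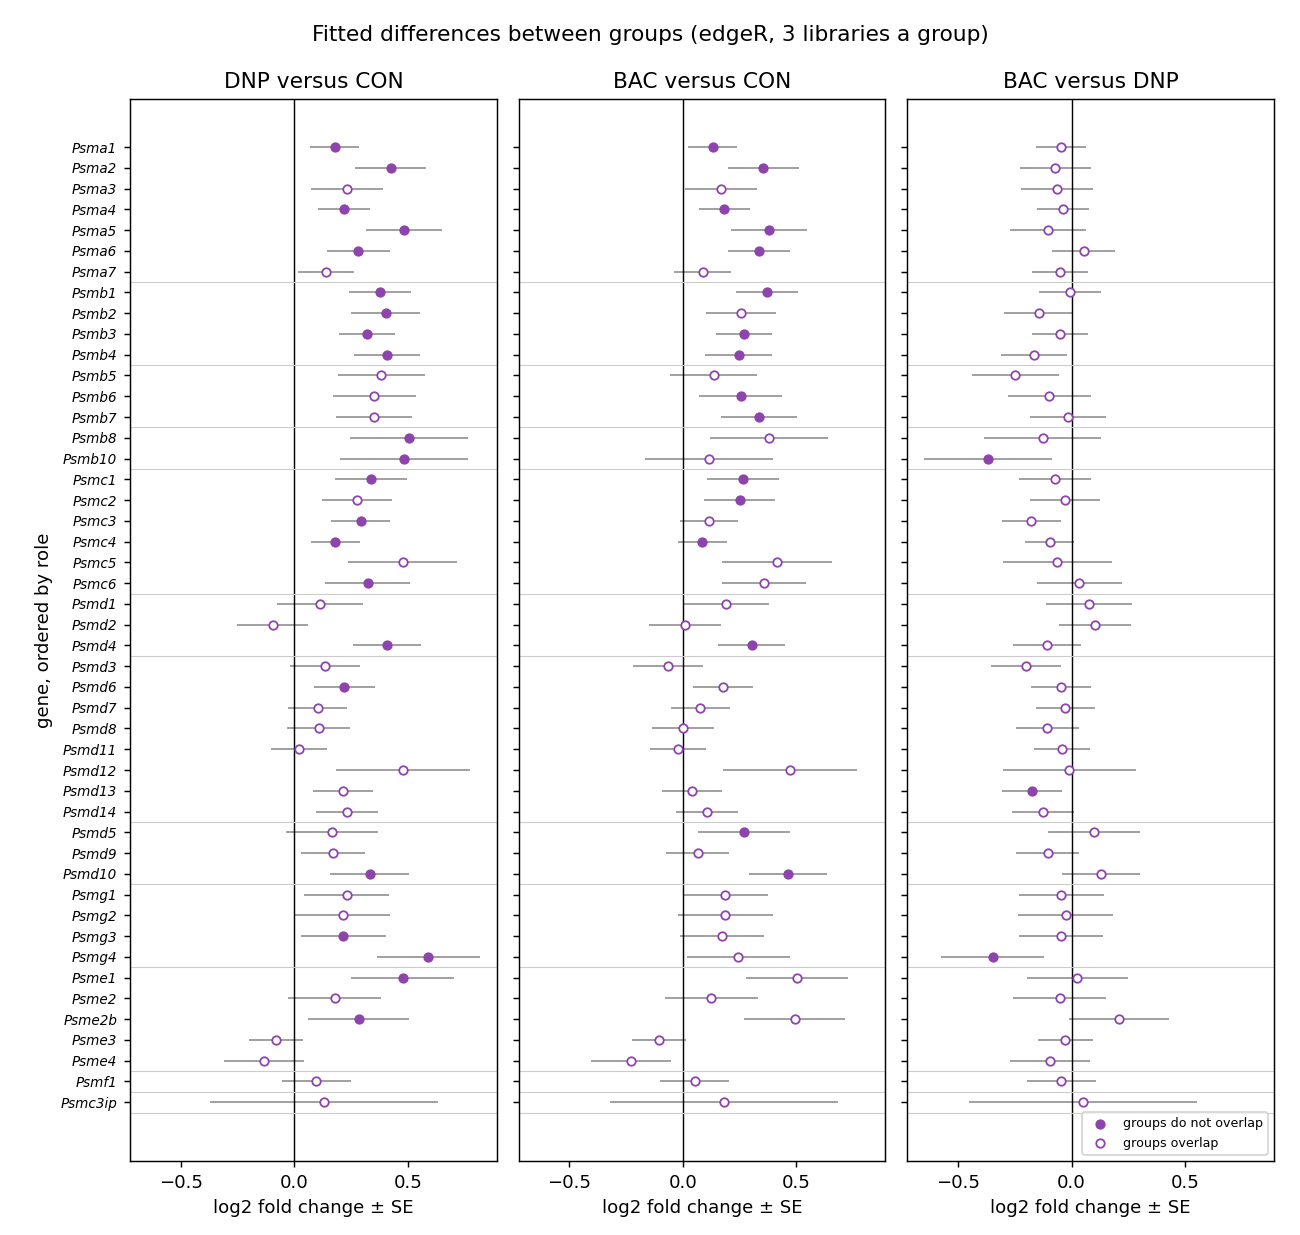
Fitted log2 fold change ± SE of each gene in the 3 comparisons (edgeR, 3 libraries a group), ordered by role, with filled points where the libraries of the 2 groups did not overlap. Against CON, 22 genes in DNP and 16 in BAC are filled on the right of 0, and in BAC versus DNP 3 are filled, all on the left.

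The comparison of BAC with CON asks how diabetic mice that received baclofen differed from control mice. It shares the CON libraries with the comparison above, so the pair are not independent. In BAC 43 of 47 members were higher (background 48.2%), with a median log2 fold change of 0.19 beside -0.02 for all genes. The BAC libraries lay above CON without overlap for 16 members (background 7.21%) and below for 0 (background 6.23%). At an unadjusted p under 0.05, 4 members were higher (background 4.46%), namely Psma5, Psma6, Psmb1 and Psmd10, and 0 were lower (background 3.3%). After adjustment no member passed in edgeR (0% of all genes) or in DESeq2 (0.541% of all genes), and the smallest adjusted p was 0.628 in edgeR and 0.374 in DESeq2. The count of 4 was 0 without CON 2 or BAC 3, 1 without CON 3 and 2 without DNP 2 or DNP 3. The libraries DNP 2 and DNP 3 are outside this comparison but enter the shared estimate of spread. Shares over all tested genes are not given for those fits either.

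Psmd10, the base chaperone also known as gankyrin, measured 12.4, 9.84 and 12.2 CPM in CON, 15.6, 14.5 and 13.3 in DNP and 15.7, 13.9 and 17.9 in BAC. All diabetic libraries exceeded CON, and the log2 fold change of BAC was 0.46 ± 0.17 (SE, edgeR adjusted p = 0.628). Psma6 measured 59.0, 58.0 and 58.7 CPM in CON, 76.3, 67.4 and 70.1 in DNP and 75.3, 62.4 and 84.1 in BAC. The CON libraries were nearly level with each other and lay below all others, and the log2 fold change of BAC was 0.34 ± 0.14 (SE, edgeR adjusted p = 0.636). For Psmb1 and Psma5, whose libraries are given above, the log2 fold changes of BAC were 0.37 ± 0.14 and 0.38 ± 0.17 (SE, edgeR adjusted p = 0.628 and 0.638). On the lower side stood Psme4 with -0.23, Psme3 with -0.11, Psmd3 with -0.06 and Psmd11 with -0.02 on the log2 scale, none of which passed. Psmd11 turned to 0.04 with library totals alone as the scaling. Psmd3, a lid scaffold, measured 142, 136 and 137 CPM in CON, 132, 158 and 166 in DNP and 112, 152 and 133 in BAC. Psmd11, a lid subunit, measured 45.3, 50.8 and 46.3 CPM in CON, 50.2, 47.6 and 46.6 in DNP and 45.5, 43.2 and 51.5 in BAC. In both genes the BAC range covered the CON range.

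To compare diabetic mice with and without baclofen, BAC was set against DNP. Here 9 of 47 members were higher and 38 lower (48.1% of all genes were higher), but the differences were small, with a median of -0.05 beside -0.01 for all genes and a range from -0.37 to 0.21. The 9 became 23 without DNP 1, 21 without BAC 2, 14 without BAC 1 and 5 without BAC 3, and the median ran from -0.10 without BAC 3 to -0.004 without DNP 1. The median SE of a member's log2 difference was 0.16. No member passed an unadjusted p under 0.05 upward (background 1.37%) or downward (background 1%), and none passed after adjustment in edgeR (0% of genes, smallest adjusted p of a member 0.998) or DESeq2 (0.0378% of genes). BAC lay above DNP without overlap for 0 members (background 3.38%) and below for 3, Psmb10, Psmd13 and Psmg4 (6.38% of the members, background 3.41%). This comparison shares the DNP libraries with that of DNP and CON, so opposite directions in the pair are not independent. The count of 3 without overlap, over both directions, was 7 without DNP 1, 10 without DNP 2, 6 without BAC 2 and 11 without BAC 3, in a comparison of fewer libraries.

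Among those lower, Psmb10 had a log2 fold change of -0.37 ± 0.28 and Psmg4 of -0.35 ± 0.23 (SE, edgeR adjusted p = 0.998 for each). In Psmb10 the BAC libraries reached 23.1 CPM and the DNP libraries began at 23.3. Psmc3, a base ATPase, measured 104, 92.2 and 97.8 CPM in CON, 124, 108 and 127 in DNP and 99.95, 101 and 117 in BAC. Its log2 fold change was -0.18 ± 0.13 (SE, edgeR adjusted p = 0.998), with BAC 3 inside the DNP range. Exons of Psmc3 share 215 bases with Slc39a13 on the opposite strand. Psmd13, a lid subunit, measured 50.7, 39.8 and 47.2 CPM in CON, 54.5, 50.4 and 54.8 in DNP and 49.8, 47.4 and 44.3 in BAC. BAC lay below DNP by a narrow margin and within the CON range, at -0.17 ± 0.13 (SE, edgeR adjusted p = 0.998), and 342 bases of its exons are shared with Sirt3 on the opposite strand. Among those higher, Psme2b measured 6.70, 8.41 and 8.64 CPM in CON, 9.34, 10.5 and 9.06 in DNP and 8.28, 13.5 and 11.6 in BAC, with a log2 fold change of 0.21 ± 0.22 (SE, edgeR adjusted p = 0.998). BAC 1 stood below all DNP libraries and BAC 2 and BAC 3 above them. Psmd10, Psmd2 and Psmd5 followed with log2 fold changes of 0.13, 0.10 and 0.10. Psmd5 measured 43.2, 45.5 and 47.0 CPM in CON, 67.5, 42.9 and 42.1 in DNP and 54.7, 47.2 and 61.6 in BAC, with the lowest BAC library above DNP 2 and DNP 3 and below DNP 1.

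Some members differed between libraries with more and fewer brainstem marker transcripts. Among the 6 diabetic libraries, the 3 rich in brainstem markers lay above the other 3 (DNP 2, DNP 3 and BAC 2) for 11 members (background 20.6%) and below them for 2 (background 21.6%), so the 11 were near the share over all tested genes. The difference was above 0 for 31 of the 47 members (background 49.9%), with a median of 0.07 on the log2 scale and a range from -0.58 to 0.72. Psmd12, a lid subunit chosen after its values were seen, measured 54.6, 50.3 and 52.7 CPM in CON, 107, 54.1 and 59.4 in DNP and 73.3, 51.2 and 94.0 in BAC. The brainstem-rich libraries averaged 90.2 CPM, the other diabetic libraries 54.8 and CON 52.5. Psmc5, chosen in the same way, measured 131, 146 and 135 CPM in CON, 255, 145 and 173 in DNP and 175, 145 and 229 in BAC, with 217 CPM in the brainstem-rich libraries, 154 in the other diabetic ones and 137 in CON. The other members above in all 3 were Psmd5 (0.47), Psmc6 (0.43), Psmd1 (0.41), Psmd2 (0.30), Psmb7 (0.30), Psma6 (0.24), Psmd10 (0.24), Psmg1 (0.22) and Psmd6 (0.20), as log2 differences. Psmd3 (-0.34) and Psmd9 (-0.24) lay below.

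With the 3 brainstem-rich libraries set aside, DNP 2, DNP 3 and BAC 2 averaged above CON for 41 of 47 members (background 52.2%). The median log2 difference was 0.18. These libraries lay above all CON libraries for 19 members (background 10.8%) and below all for 1, Psmd2 (background 11.5%). Their mean log2 deviations of cerebellum markers were -2.92, -3.07 and -2.88, below every CON library, and each had 0 counts of Gabra6. Diabetes and cerebellum content therefore cannot be told apart in this subset. In the fit without the brainstem-rich libraries, 41 members were higher in DNP than in CON, with a median of 0.20. There the log2 fold change of Psma5 in DNP was 0.37, of Psmb4 0.35, of Psmb1 0.27 and of Psmd4 0.29. The median of BAC against CON fell to 0.08, from 1 remaining BAC library. With the cerebellum and brainstem marker scores as covariates, the median of DNP against CON was 0.13 (34 of 47 higher) and that of BAC against CON 0.03 (27 of 47 higher). No CON library was brainstem-rich, so the scores went with group. With 9 libraries this fit cannot fully separate region from group, and its values are not differences freed of region. With these covariates the log2 difference of DNP was 0.15 for Psma5, 0.20 for Psmb4, 0.13 for Psmb1 and 0.22 for Psmd4, and turned below 0 for Psmb5 (-0.15), Psmb10 (-0.20) and Psmf1 (-0.26) and above 0 for Psme4 (0.30). That of BAC against CON was 0.08 for Psmd10 and Psmb1, 0.12 for Psma6 and 0.003 for Psma5.

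**Figure D4:**
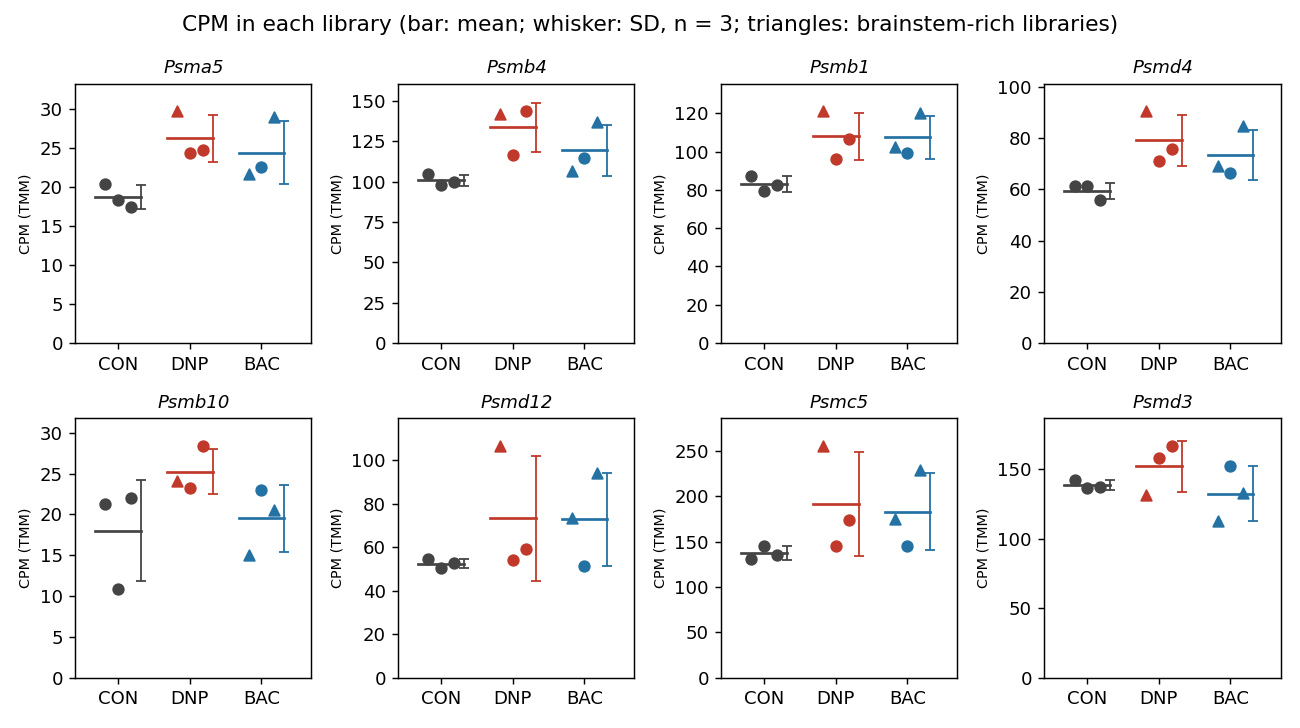
CPM of 8 members in each library (points), with the group mean (bar) and SD (whisker, n = 3), on axes that start at 0. Triangles are the libraries rich in brainstem markers. In Psma5, Psmb1, Psmb4 and Psmd4 all 6 diabetic libraries lie above CON, whereas in Psmd12 and Psmc5 the triangles lie above the other diabetic libraries, in Psmc5 by a narrow margin for BAC 1, and in Psmb10 the CON 2 library (10.8 CPM) lies low.

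Genes of the surrounding pathways were read from 8 lists beside the members. The counts of genes higher in DNP in these lists stand beside 51.4% of all tested genes. Of 12 proteasome parts and partners without a Psm name, 6 were higher and 6 lower in DNP than in CON, with a median log2 difference of 0.01. Sem1, the smallest lid subunit, measured 20.0, 23.3 and 28.2 CPM in CON, 35.3, 29.5 and 28.8 in DNP and 24.6, 29.0 and 31.8 in BAC (0.39 ± 0.18 in DNP, SE, edgeR adjusted p = 0.460). Ubr4, a ubiquitin ligase that binds the proteasome, was lower (-0.38 ± 0.19, SE, edgeR adjusted p = 0.479). Pomp, the maturation factor of the 20S core, had a log2 fold change of 0.28 and the ubiquitin receptor Adrm1 of 0.06. Of 12 genes for ubiquitin and its activation 7 were higher, with 0.21 for Ubb, and of 12 shuttle and VCP genes 5 were higher.

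In the NRF1 pathway 6 of 9 genes were higher in DNP. Nfe2l1, the factor itself, measured 104, 59.0 and 96.1 CPM in CON, 407, 40.1 and 36.8 in DNP and 58.0, 55.3 and 69.8 in BAC. DNP 1 stood far above every other library, while DNP 2 and DNP 3 were the lowest of all, and the log2 fold change was 0.90 ± 0.83 (SE, edgeR adjusted p = 0.728). Sel1l, of the pathway that extracts proteins from the endoplasmic reticulum, was lower in DNP without overlap at 158, 62.3 and 139 CPM against 198, 186 and 198 in CON, with DNP 2 far below the rest (-0.70 ± 0.30, SE, edgeR adjusted p = 0.435). Ngly1, which removes sugar chains from NRF1, was higher in BAC than in CON (0.49 ± 0.20, SE, edgeR adjusted p = 0.636). Nfe2l2, which encodes the related factor NRF2, had a log2 fold change of 0.12 in DNP.

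In antigen presentation 8 of 10 genes were higher in DNP, and the one with the smallest p was B2m, the light chain of MHC class I, at 53.7, 62.3 and 57.5 CPM in CON, 78.7, 70.9 and 82.5 in DNP and 78.3, 57.9 and 79.9 in BAC (0.42 ± 0.16, SE, edgeR adjusted p = 0.392). Of 14 interferon response genes, a list that includes Psmb8 and Psmb9, 11 were higher in DNP with a median of 0.25. Ifit1, an interferon-induced antiviral gene, measured 1.99, 3.21 and 2.39 CPM in CON, 4.13, 2.39 and 4.47 in DNP and 7.41, 3.18 and 4.53 in BAC, with a log2 fold change of 0.99 ± 0.39 in BAC against CON (SE, edgeR adjusted p = 0.628). Of 12 heat shock genes 9 were higher in DNP, with a median of 0.08, and 6 were higher in BAC against CON, with a median of 0.0004. Hspa8, the constitutive Hsc70 chaperone, measured 501, 350.0 and 403 CPM in CON, 974, 616 and 677 in DNP and 715, 389 and 679.6 in BAC, and DNP lay above CON without overlap (0.85 ± 0.28, SE, edgeR adjusted p = 0.363). Of 12 autophagy genes 8 were higher in DNP, with a median of 0.13, and 7 were higher in BAC against CON, with a median of 0.04. Gabarap, which binds autophagosome cargo receptors, measured 81.1, 80.1 and 82.4 CPM in CON, 117, 105 and 111 in DNP and 92.5, 100.3 and 114 in BAC, above CON in all 6 diabetic libraries (0.45 ± 0.12 in DNP, SE, edgeR adjusted p = 0.325), and was the one gene of these lists below 0.05 after adjustment in DESeq2 (adjusted p = 0.0416). Atg7, of the same autophagy list, went the other way. It was lower in BAC than in CON without overlap (-0.42 ± 0.17, SE, edgeR adjusted p = 0.628). In DNP against CON it was lower with overlap (-0.30 ± 0.17, SE, edgeR adjusted p = 0.533). No gene of the lists passed in edgeR.

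The spread of the members between libraries was small beside that of other genes. Their median biological coefficient of variation, the spread between mice within groups, was 0.19, beside 0.28 over all tested genes. That comparison is not matched for level, and the trend with level was itself lower for the members (median 0.30 against 0.34). Each of the 47 lay below the trend for its level, as did 14041 of the 18501 tested genes. Of the 3 matches that missed the count minimum, Psma8, a testis alpha subunit, had 0 to 14 counts a library, Psmb11, the thymus-specific subunit, 0 to 10, and Psmb9 9 to 40. Among the members, the lowest count in a library was 18 for Psmc3ip and 36 for Psmb8. The 4 rows marked -ps had at most 7 counts in a library.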

How the data were processed

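The authors filtered the reads, aligned them with HISAT2 2.1.0 to GRCm38 and quantified genes with StringTie 1.3.3b, per the submitters' processing notes, which also list FastQC 0.11.9, fastp and Bowtie2 2.3.4.1. The deposited counts are raw, whole numbers per gene. The deposited FPKM values equal the count divided by a gene length and the library total, since the lengths they imply for a gene in different libraries had a ratio of at most 1.000018 over 12216 genes. How the authors counted reads that map to several genes was not given in the sources used here.

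Counts were fitted in R 4.3.3 with edgeR 4.0.16 (filterByExpr with a minimum count of 10, TMM, quasi-likelihood test, group as factor, 9 libraries in 1 model), with Benjamini-Hochberg adjustment over 18501 genes and a threshold of 0.05. The script was run on simulated data with planted changes larger than the difference of any member, so differences of the members' size were not covered. Totals of 13107382 to 16008129 counts set the counting precision, and differences between mice exceed it. Members and lists were chosen with earlier results of these data known. By rule, the named genes were the catalytic, inducible, activator and inhibitor genes, the 4 members with the smallest p in each direction of each comparison, and up to 2 genes a pathway list, besides Nfe2l1, Nfe2l2, Pomp, Adrm1 and Ubb. A further gene that the rule named is not reported here. Alternatives were DESeq2 1.42.0, other scalings, no filter, limma 3.58.1 on log2 FPKM (pseudocount 1 or 0.1), a replicate block, marker scores as covariates and each library left out. Leaving out the 3 brainstem-rich libraries was chosen after seeing the data. Positions are from GENCODE M21 on GRCm38. All 8 promoter motifs looked at are reported.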

Additional observations from a re-analysis of the deposited data

How the results depend on the processing

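No member passed an adjusted p of 0.05 under any alternative run. Of 589 alternative values of the 31 named differences, 573 kept their sign. Many of the 31 were picked for a small p in these data, and the alternatives reuse the same libraries. The count of kept signs is therefore a description and not a test. In DNP versus CON, the 8 members at an unadjusted p under 0.05 became 13 with limma on log2 FPKM (pseudocount 1 or 0.1), 1 with marker scores as covariates, 1 without the brainstem-rich libraries and 1 to 13 with each library left out. The median of 0.23 became 0.13 with covariates, a fit that cannot fully separate region from group. In BAC versus CON, the 4 members became 10 with library totals alone, 11 with limma at either pseudocount, 1 with covariates and 0 to 6 with each library left out. The median of 0.19 became 0.0323 with covariates and 0.13 to 0.27 with each library left out. It became 0.0813 without the brainstem-rich libraries, from 1 BAC library. The 16 members without overlap became 14 to 25 with each library left out. In BAC versus DNP, 0 to 1 member passed with each library left out, and the 3 without overlap became 2 to 11. The median of -0.05 became -0.0893 without the brainstem-rich libraries, where BAC has 1 library assumed to vary like the others. With fewer libraries in a group, a lack of overlap is easier to reach. The share over all tested genes is not given for any of these alternative counts, here or above. This holds for the counts at an unadjusted p under 0.05 and for those without overlap. That share can also change with the setting.

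With covariates the sign turned for Psmb5 (-0.15), Psmb10 (-0.20), Psme4 (0.30) and Psmf1 (-0.26) in DNP versus CON, Psmd5 (-0.0382) in BAC versus DNP, and Psme4 (0.17) and Psmd3 (0.0371) in BAC versus CON. In BAC versus CON it also turned for Psmd3 without the brainstem-rich libraries (0.13) and with a library left out (-0.18 to 0.0336), and for Psmd11 with library totals alone (0.0431), limma (0.0338 and 0.0402) and a library left out (-0.10 to 0.0308). With a library left out, Psmd5 in BAC versus DNP ranged from -0.0185 to 0.36. The cause was not tested.

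The replicate numbers did not pair the samples: deviations of same-numbered libraries correlated with r from -0.58 to 0.56. With a replicate block, the members at an unadjusted p under 0.05 numbered 7 for DNP against CON, 0 for BAC against DNP and 2 for BAC against CON, and the block changed no other call. Of the 9 libraries, 2 correlated best with their own number.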
